A study of Mus musculus with 2 samples.

Results

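Prss34-low resting basophils were the cells of the E-cadherin+cKIT- library that carried basophil transcripts, showed no transcripts of 2 division genes and held little Prss34. They numbered 1172 of the 3745 cells of that library, or 31.3% (95% exact binomial interval 29.8% to 32.8%), and 1172 of the 10377 cells in both libraries. A cell was chosen if it had at least 1000 unique molecular identifiers (UMIs, each standing for 1 captured RNA molecule), if Mcpt8, Fcer1a, Ms4a2 and Cd200r3 made up at least 0.3% of its UMIs, if Cd79a, C1qa and Prg2 each had under 3 UMIs, if Mki67 and Top2a had none, and if Prss34 made up under 1% of its UMIs. These 10 genes chose the cells, so their levels are given below as a description only. The other genes of the chosen cells were also looked at before these cells and the genes named for them were settled on, and no value below is a test.

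The study sorted bone marrow cells of FVB mice by E-cadherin, a cell adhesion protein, and by cKIT, a receptor of progenitor and mast cells, and made 1 droplet library (10x Genomics, 3' tags) from E-cadherin+cKIT+ cells and 1 from E-cadherin+cKIT- cells. The labels give the strain but no treatment, genotype or age. The study's text differs on the genotype, calling the mice wild-type in its account of the sort and VaviCre;mTmG, with Cre under the Vav promoter of blood cells and a fluorescent reporter of Cre activity, in its caption. In both, Cdh1 is intact and the libraries share the genotype, and each library may pool animals, since several mice were used and the cells are not marked by mouse. With 1 library per sort there is no replicate. All intervals are therefore 95% intervals for counting error alone, and say nothing about other mice or sorts. Levels are UMIs summed over the cells of a population and scaled by the total of that population to the usual unit of depth-scaled counts (CPM).

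Prss34-low cells were compared with 4 populations. The other cells of the library were the remaining 2573 cells of all kinds. The Prss34-high resting basophils were the 797 cells of the same library that met every condition but had Prss34 at 1% or more. The cycling basophils were 1197 cells of the same library with Mki67 or Top2a UMIs, and the last population was the 479 cells that met the same rule in the cKIT+ library (7.22% of its 6632 cells, interval 6.61% to 7.87%). The 237 cells of the cKIT- library with at least 3 Cd79a UMIs, which mark the B lineage, served as a measure of basophil RNA found in cells that should not make it.

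Basophils are rare granulocytes that carry the high-affinity IgE receptor. Cross-linking of that receptor releases histamine and lipid mediators and starts the production of cytokines such as IL-4. They mature in the bone marrow under GATA2 and IL-3, then leave for the blood and tissues. Mcpt8 and Prss34 encode serine proteases made largely by mouse basophils and stored in their granules, and CCL3, CCL4, CCL6 and CCL9 are chemokines that attract monocytes and other leukocytes through receptors such as CCR1.

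The sequences upstream of 4 genes that the results turn on are shown first, each 120 bases long, 5' to 3' on the gene's own strand and ending at the base before the RefSeq start (GRCm38.p6). Prss34 (chr17:25298274-25298393, + strand) was the gene that split resting basophils, and Cd200r3 (chr16:44943558-44943677, + strand), an activating receptor of basophils, had the opposite pattern. Capitals mark AGATAA, a letter sequence that GATA factors are known to bind, searched on both strands. It began 31 bases before the Prss34 start and 39 bases before the Cd200r3 start, and 4.36% of 32851 windows of this length held it.
Prss34: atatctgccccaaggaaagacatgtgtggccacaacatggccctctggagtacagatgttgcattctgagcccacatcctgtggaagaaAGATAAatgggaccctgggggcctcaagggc
Cd200r3: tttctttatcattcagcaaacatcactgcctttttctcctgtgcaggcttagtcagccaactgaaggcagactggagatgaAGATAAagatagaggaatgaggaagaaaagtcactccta
Prss34 was lower and Cd200r3 higher in Prss34-low cells, and nothing about GATA factors is drawn from the letters. A match is a description of the letters and does not show binding.

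Ccl6 (chr11:83593088-83593207, - strand) and Ccl9 (chr11:83578637-83578756, - strand) lie next to each other in a chemokine cluster and were both higher in Prss34-low cells. Capitals mark runs of at least 12 bases that the 2 windows share, of which the longest had 13 bases.
Ccl6: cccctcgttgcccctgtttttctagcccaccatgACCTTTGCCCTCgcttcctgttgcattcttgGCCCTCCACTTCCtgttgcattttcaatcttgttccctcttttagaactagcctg
Ccl9: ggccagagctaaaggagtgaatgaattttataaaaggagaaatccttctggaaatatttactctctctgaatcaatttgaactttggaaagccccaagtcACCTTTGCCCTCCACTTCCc
The shared runs covered 25 bases of the Ccl6 window and 19 of the Ccl9 window, because 1 stretch of the Ccl9 window matched separate places upstream of Ccl6.

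The cells were first checked against their label. Of 10 basophil markers, 9 reached 20 CPM in Prss34-low cells, but the rule used 5 of the 10 (Mcpt8, Fcer1a, Ms4a2, Cd200r3 and Prss34), so only the other 5 bear on the label. Among the rule genes, Ms4a2, the beta chain of the IgE receptor, had 2210 CPM (interval 2162 to 2259), against 2018 CPM in Prss34-high cells. Of the markers outside the rule, Gata2, the transcription factor of the lineage, had 1623 CPM against 1257 CPM. Hdc, which makes histamine, had 878 against 518 CPM, and Il3ra, the IL-3 receptor chain, 212 against 268 CPM. Cpa3, a granule carboxypeptidase, had 1175 against 3245 CPM. Itga2 had 10 UMIs or 2.72 CPM. Thus 4 of the 5 markers outside the rule were carried by Prss34-low cells.

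Kit, which encodes cKIT, had 1 UMI in all Prss34-low cells together, or 0.272 CPM (0.00687 to 1.51), against 35.04 CPM in cells of the same rule in the cKIT+ library. Cdh1, which encodes E-cadherin, had 333 CPM (314 to 352), against 214 CPM in Prss34-high cells, 160 CPM in cycling basophils and 113 CPM in cells of the same rule in the cKIT+ library. Kit RNA was thus close to 0 in the sort named for lacking cKIT, and Cdh1 RNA was found in cells of both E-cadherin+ sorts. The word mature in the working name of these cells rests on RNA patterns alone, since no value here measures maturity.

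Most markers of other cell types were at or near 0. The mast cell list (8 genes) summed to 3.53 CPM, with 5 genes at 0 UMIs, and none of its genes reached 20 CPM. In the T cell list Cd3e, Cd3g, Trac, Cd4 and Cd8a had 0 UMIs, and Trbc2 alone was abundant (198 CPM, against 172 CPM in Prss34-high cells). In the NK cell list 6 of 8 genes were at 0, and Nkg7 had 94.8 CPM against 392 CPM. The innate lymphoid list summed to 363 CPM, with Icos at 0 and Gata3 at 2.72 CPM, and most of it was Il7r (263 CPM). The eosinophil list summed to 96.7 CPM, of which Ccr3 made up 69.5 CPM, and Prg2, Prg3 and Il5ra had 0 UMIs (Prg2 was limited by the rule). For a gene at 0, 3 counts would be 0.815 CPM in Prss34-low cells.

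The progenitor lists were low but rested on several genes. The granulocyte and monocyte progenitor list summed to 424 CPM, of which Ctsg was 264, Mpo 101 and Ms4a3 55.9 CPM, against 5422 CPM in Prss34-high cells. The early progenitor list summed to 229 CPM, of which Apoe was 128, Angpt1 50.8 and Myb 19.3 CPM, against 778 CPM, with Flt3 and Ly6a at 0. The other lists were low or rested mostly on 1 gene. The B cell list summed to 36.1 CPM and the plasma cell list to 1.36 CPM. The erythroid list summed to 17.6 CPM and the macrophage list to 19.0 CPM. The monocyte list summed to 210 CPM, of which Ms4a6b was 167 CPM, while Ly6c2 had 6 UMIs. The dendritic cell list summed to 841 CPM, of which Cst3 was 802 CPM, with Siglech, Cd209a and Flt3 at 0. The megakaryocyte list summed to 427 CPM, nearly all of it Itga2b, with 4 genes at 0. The neutrophil list summed to 647 CPM, of which Cxcr2 was 472 CPM. A single cell held 320 of the 374 S100a9 UMIs and 194 of the 234 S100a8 UMIs of all Prss34-low cells. That cell had 4505 UMIs, of which 17 were Mcpt8 and 10 were Ccl6.

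Depth differed between the populations and moved with every contrast below. The median Prss34-low cell had 3057.5 UMIs (quartiles 2598 and 3558.5) and 1375 genes. The median was 5602 UMIs and 1955 genes in Prss34-high cells, 10501 UMIs in cycling basophils, 7174 UMIs in the other cells of the library and 10065 UMIs in cells of the same rule in the cKIT+ library. Whether the lower count reflects less RNA in a cell or a lower capture of it cannot be told apart. A shallow cell also has fewer chances to show an Mki67 or Top2a UMI, so the rule itself favours such cells. The median share of mitochondrial transcripts was 2.89% in Prss34-low cells and 4.11% in Prss34-high cells. Of 10 cell barcodes found in both libraries, 3 were Prss34-low cells.

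Basophil RNA was also found in B-lineage cells of similar depth (median 2742 UMIs). With each cell thinned to 1000 UMIs, 17.7% of B-lineage cells (13.1% to 23.2%) still had a Prss34 UMI and 17.3% (12.7% to 22.7%) an Mcpt8 UMI. In Prss34-low cells the shares were 39.5% (36.7% to 42.4%) and 85.2% (83.0% to 87.1%). Summed Prss34 was 1408 CPM in Prss34-low cells, below the 4468 CPM of B-lineage cells, and summed Mcpt8 was 3950 against 2458 CPM. The B-lineage sums rest on few cells, 5 of which held 79.8% of the Prss34 UMIs and 77.0% of the Mcpt8 UMIs. The order of Prss34 by share goes against that by CPM, so no order is read from it, and how much of the Prss34 in Prss34-low cells is RNA of other cells was not tested.

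The label genes, 8 genes put forward for these cells from earlier results, were all higher in Prss34-low cells than in each of the 4 populations. Ccl6 had 5823 CPM (5745 to 5901), against 1660 CPM in Prss34-high cells, 867 CPM in cycling basophils, 1122 CPM in the other cells of the library and 233 CPM in cells of the same rule in the cKIT+ library. Ccl3, which encodes MIP-1 alpha, had 2977 CPM in the same order against 1561, 933, 1063 and 122 CPM. Ccl4, which encodes MIP-1 beta, had 1040 CPM against 303, 149, 195 and 54.1 CPM. All 3 chemokine genes lie on chromosome 11 (GRCm38), Ccl6 from 83587882 to 83593087, Ccl3 from 83647844 to 83649355 and Ccl4 from 83662584 to 83664683.

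Among the receptors of the label, Cd7, known as a surface protein of T and NK cells, had 1128 CPM against 201 CPM in Prss34-high cells and 44.4 CPM in cycling basophils. Il7r, the IL-7 receptor chain of lymphoid cells, had 263 CPM against 62.1 and 20.7 CPM. Cxcr2, the receptor by which neutrophils follow CXC chemokines, had 472 CPM against 116 and 49.2 CPM. Cd7 and Il7r are best known from lymphocytes, whose marker lists are given above, and the part of such cells in these levels was not tested. Lilr4b, a leukocyte immunoglobulin-like receptor, had 1000 CPM against 332 and 174 CPM. Its near-identical neighbour Lilrb4a had 234 against 69.05 CPM, and reads of the pair may be split between them, so each level is uncertain. Cd200r3, which the rule used, had 690 CPM against 336 and 250 CPM.

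**Figure D1:**
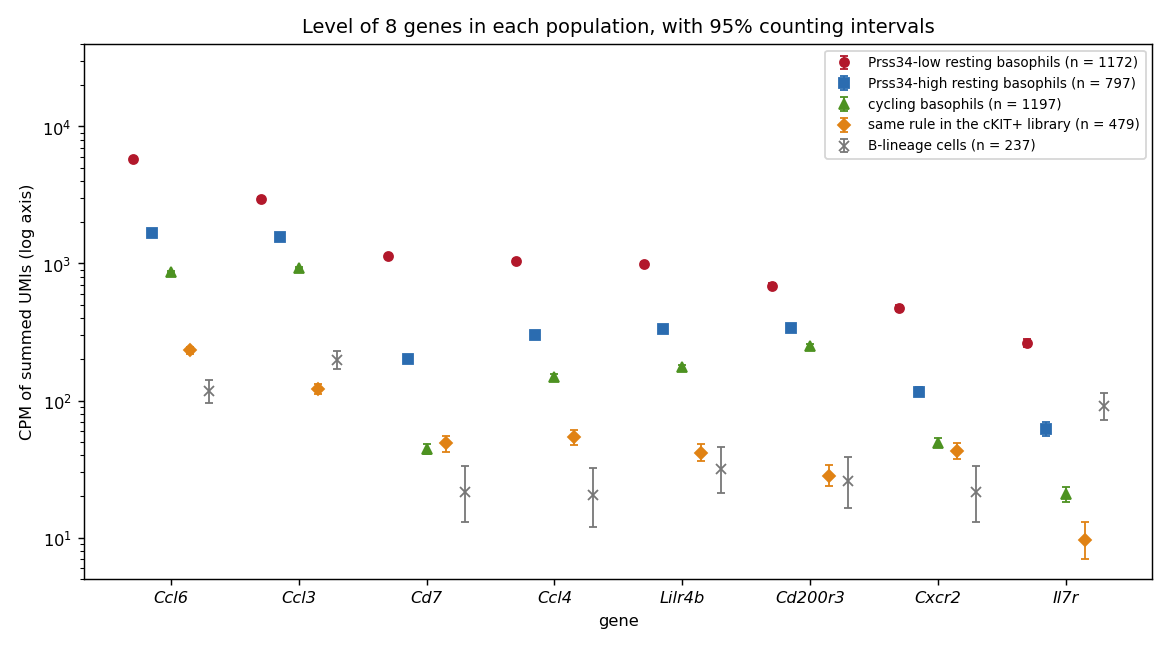
CPM of the 8 label genes (x axis) on a log axis in 5 populations, each point the sum over that population's cells with its 95% counting interval. In each of the 8 genes the Prss34-low cells lie highest and above the Prss34-high resting basophils, and B-lineage cells show the level found in cells of another type, which for Il7r exceeds that of Prss34-high cells (91.4 against 62.1 CPM).

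Shares of cells with a UMI were set beside those of B-lineage cells. After thinning to 1000 UMIs, Ccl6 was found in 85.0% of Prss34-low cells (82.8% to 87.0%), 45.0% of Prss34-high cells and 1.69% of B-lineage cells. Cd7 was found in 65.8%, 21.6% and 0.422%, and Ccl3 in 87.7%, 67.9% and 4.22%. Il7r was found in 22.4%, 6.90% and 5.49%, the last in cells of a lineage that uses the IL-7 receptor itself. In cells of the same rule in the cKIT+ library the shares were 12.3% for Ccl6, 8.35% for Cd7, 12.5% for Ccl3 and 2.30% for Il7r. Without thinning, the shares in Prss34-low cells were 88.9% for Ccl6, 91.9% for Cd7, 98.5% for Ccl3 and 48.9% for Il7r, and in B-lineage cells 6.75%, 1.69%, 8.86% and 10.97%.

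Against the Prss34-high resting basophils, 152 of 3120 genes with at least 50 CPM on either side were at least 2-fold higher in Prss34-low cells (4.87%) and 145 were at least 2-fold lower (4.65%). The median log2 ratio of all 3120 genes was 0.21. With the rule genes and the 10 most abundant genes left out of the totals the median was 0.09, and the counts were 112 higher and 194 lower. Of the label genes 7 of 8 were at least 2-fold higher, Ccl3 being the exception, and none was lower. Of the 3120 genes, 9 were at least 4-fold higher and 45 at least 4-fold lower. The minimum of 50 CPM was met only in the population with the higher level by 78 of the 152 and 90 of the 145 genes. Such genes could be counted in 1 direction alone, which also holds for members of the lists below. Restricted to cells of 3000 to 6000 UMIs, 616 Prss34-low and 407 Prss34-high cells with medians of 3500.5 and 4463 UMIs, the counts fell to 20 (0.671%) and 30 (1.01%) of 2981 genes. Of the 152 higher genes, 17 stayed past 2-fold, 126 were under 2-fold and 9 no longer reached 50 CPM on either side, 1 of which still had a ratio past 2-fold. Of the 145 lower genes, 29 stayed past 2-fold, 63 were under 2-fold and 53 no longer reached 50 CPM, 21 of which still had a ratio past 2-fold. Among the 20 higher genes, S100a9 and S100a8 rest on the single cell described above and ran the other way in all cells, with 101.6 against 515 CPM and 63.5 against 324 CPM. That opposite order also rests on few cells, since 1 Prss34-high cell held 83.3% of the S100a9 UMIs of its population and 1 held 80.2% of the S100a8 UMIs. The part that depth plays in the differences was not tested. This restriction was chosen after the data had been seen. It kept 407 of the 797 Prss34-high cells, with a median of 4463 UMIs against 5602 UMIs in all of them. Since depth rose with the share of Prss34, it also changed which Prss34-high cells were compared. The counts of each list below stand beside these shares of all genes, 4.87% and 4.65%, or 0.671% and 1.01% at similar depth.

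**Figure D2:**
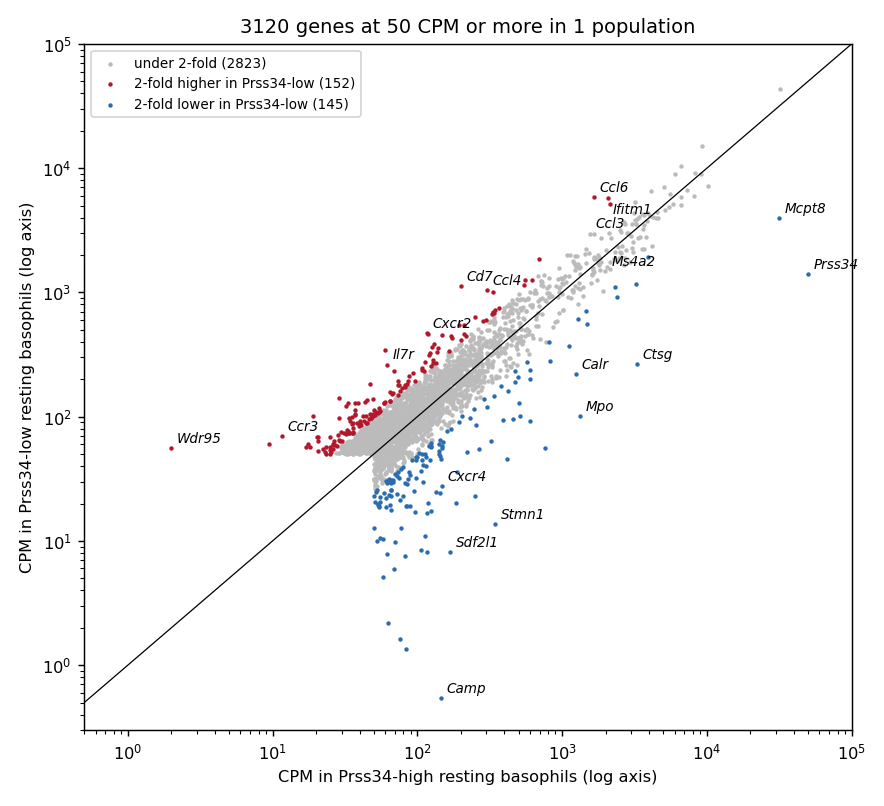
CPM of 3120 genes in Prss34-high (x axis) and Prss34-low (y axis) resting basophils, both on log axes, with the line of equality. The 152 genes at least 2-fold higher in Prss34-low cells are red and the 145 at least 2-fold lower are blue, with Mcpt8, Prss34 and Ctsg far to the lower right.

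The largest ratio was that of Wdr95, a gene of the WD repeat family, with 205 UMIs or 55.7 CPM against 10 UMIs or 2.00 CPM, a ratio of 27.9 (14.9 to 59.0). At similar depth its ratio was 12.05 (5.32 to 33.7), with 39.6 CPM and so outside the count of genes at 50 CPM, and in cycling basophils it had 0.689 CPM. Wdr95 was not confined to Prss34-low cells, since the other cells of the library had 90 UMIs of it. Only 10 of these lay in Prss34-high cells and 9 in cycling basophils, and the rest in the 579 cells that were neither. Next came Dnase2b, a deoxyribonuclease, at 6.40-fold (4.65 to 8.96), Ccr3, the eotaxin receptor, at 6.005-fold (4.50 to 8.13), and Slfn2, a schlafen gene known for keeping T cells and monocytes quiescent, at 5.70-fold (5.03 to 6.49). Cd7 followed at 5.62-fold (5.25 to 6.03), C5ar1, the receptor of the complement fragment C5a, at 5.31-fold (4.23 to 6.73), and Zfp36, which encodes the mRNA-destabilising protein tristetraprolin, at 4.96-fold (4.12 to 6.01). At similar depth these ratios ranged from 2.57 for Zfp36 to 3.09 for Dnase2b. Zfp36 had 122 CPM in B-lineage cells, close to its 143 CPM in Prss34-low cells.

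The rest of the 15 largest ratios were those of Il7r, Cxcr2, Vopp1, C3ar1, Igsf6, Pag1, Ccl6 and L1cam, from 4.23 to 3.47-fold. At similar depth they ranged from 1.74 for Ccl6 to 2.51 for Igsf6. Among all label genes Ccl3 had the smallest ratio, 1.91 (1.85 to 1.96), which became 1.10 (1.06 to 1.14) at similar depth. Ccl4 went from 3.44 to 1.75, Lilr4b from 3.01 to 1.55 and Cd200r3 from 2.05 to 1.30. All 8 stayed above 1 at similar depth, 3 of them (Cd7, Il7r and Cxcr2) at 2-fold or more. That direction restates how the label genes were chosen.

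**Figure D3:**
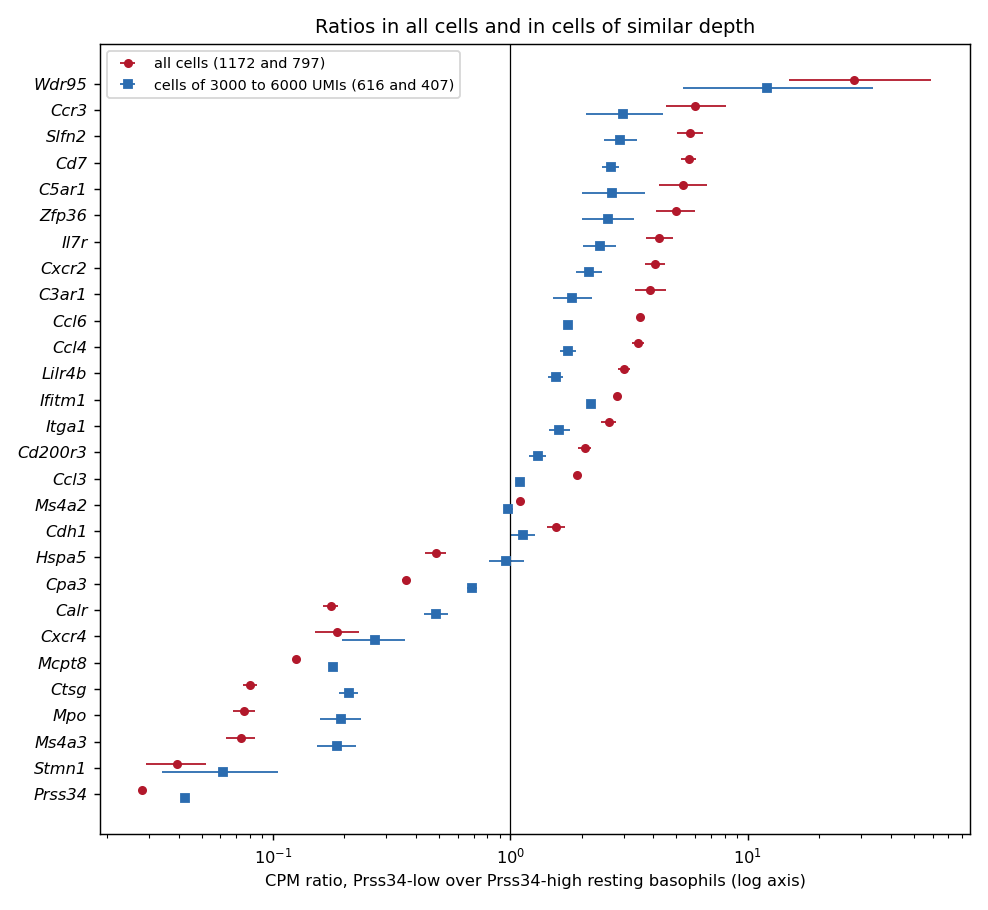
CPM ratio of Prss34-low over Prss34-high resting basophils on a log axis for 28 genes, in all cells (red circles) and in cells of 3000 to 6000 UMIs (blue squares), with 95% counting intervals. Nearly every ratio lies nearer to 1 at similar depth, Ccl3 reaching 1.10 and Hspa5 0.962. Wdr95, Cd7, Mcpt8 and Prss34 keep ratios well away from 1. Prss34 split these populations, so its ratio lies away from 1 at any depth by construction. Mcpt8 was also used by the rule. Cd7 is a label gene, so its direction restates how it was chosen.

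Genes lower in Prss34-low cells included some that rest on single cells. Camp and Ngp, granule genes of neutrophils, had 2 and 5 UMIs in Prss34-low cells, and 98.6% and 97.4% of their UMIs in Prss34-high cells lay in 1 cell each. Prss34, which the rule used, was 35.5-fold lower and Mcpt8, also used, 7.97-fold lower. Lig1 (46.4-fold, 21.1 to 127), Mcm3 (14.4-fold, 9.97 to 21.5) and Cdca7 (29.0-fold, 14.6 to 67.8) belong to DNA replication and its control, and Stmn1 (25.4-fold, 19.2 to 34.3) to the microtubules of dividing and immature cells. Lig1 had 6 UMIs in Prss34-low cells, and Stmn1 had 50. At similar depth Stmn1 stayed lower (6.68 against 108 CPM), whereas Lig1 (1.78 against 22.5 CPM), Mcm3 (4.90 against 26.9 CPM) and Cdca7 (0.891 against 12.6 CPM) were under 50 CPM on both sides and no longer counted.

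Sdf2l1, which helps proteins fold in the endoplasmic reticulum (ER), had 8.15 against 168 CPM and was 20.7-fold lower (14.4 to 30.8). At similar depth it had 8.02 against 40.6 CPM and was no longer counted. Ms4a3 and Mpo, genes of granulocyte and monocyte progenitors, were 13.7-fold (11.9 to 15.8) and 13.2-fold lower (11.9 to 14.7). After thinning, Mpo was found in 4.78% of Prss34-low cells (3.63% to 6.16%) and 2.53% of B-lineage cells (0.935% to 5.43%), which do not differ beyond counting error, and Ctsg, described next, in 13.9% (11.98% to 16.0%) and 4.64% (2.34% to 8.15%). At similar depth the ratio was 0.185 for Ms4a3 and 0.193 for Mpo, so both differences remained past 2-fold.

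Of the granule protease list, 4 of 6 genes compared were at least 2-fold lower in Prss34-low cells and none was higher. Besides both genes of the rule these were Ctsg, which encodes cathepsin G, with 264 against 3302 CPM, and Cpa3, a carboxypeptidase stored with histamine, with 1175 against 3245 CPM. Srgn, the proteoglycan that holds proteases in granules, had 2113 against 3081 CPM. At similar depth 3 of 6 (Prss34, Mcpt8 and Ctsg) stayed past 2-fold, and Cpa3 did not, with 1303 against 1890 CPM. The rule used Prss34 and Mcpt8, so of these 3 genes only Ctsg lies outside it. All 3 granulocyte and monocyte progenitor genes compared (Ctsg, Mpo and Ms4a3) were past 2-fold, while Elane and Fcnb had 0 UMIs. That list summed to 424 CPM in Prss34-low cells, 5422 CPM in Prss34-high cells and 495 CPM in B-lineage cells, where 5 cells held 82.6% of the Ctsg UMIs.

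Genes of the ER and secretory pathway were lower in part, and the list was not tested as a group. Of 43 compared, 17 were at least 2-fold lower and none was 2-fold higher, beside 4.65% and 4.87% of all genes. The median log2 ratio was -0.64 beside 0.21 for all genes. The list summed to 6994 CPM against 13246 CPM. Calr, the chaperone calreticulin, had 220 against 1257 CPM, Pdia6, a disulfide isomerase, 93.1 against 599 CPM, and Ddost, a subunit of the enzyme that adds sugars to new proteins, 95.3 against 456 CPM. Hspa5, which encodes the chaperone BiP, had 140 against 287 CPM. At similar depth 5 of 40 were 2-fold lower, beside 1.01% of all genes, and the median was -0.35 beside 0.11. Calr had 205 against 423 CPM there, but Hspa5 134 against 140 CPM.

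Of 11 DNA replication genes compared, 9 were at least 2-fold lower, but 8 of these reached 50 CPM in Prss34-high cells only and so could be counted in 1 direction alone. Mcm6 had 24.4 against 142 CPM and Dut, the ninth, 51.6 against 221 CPM. The whole list of 25 genes summed to 808 against 1865 CPM. Rfc2, its most abundant gene, had 487 against 463 CPM. At similar depth 8 of the 9 fell under 50 CPM on both sides, although 7 of these 8 were still past 2-fold lower by ratio, among them Mcm6 (24.05 against 48.8 CPM). Dut was under 2-fold (46.3 against 77.3 CPM). The rule's demand for 0 UMIs of Mki67 and Top2a was met by both populations. Of the mitosis and cell cycle list, 5 genes were compared, of which the cell cycle inhibitors Cdkn1b (130 against 58.5 CPM) and Cdkn2d (148 against 73.2 CPM) were past 2-fold higher, and Cenpa, a centromere gene, was lower. At similar depth none of the 4 compared was past 2-fold, with Cdkn1b at 1.58-fold (1.29 to 1.94) and Cdkn2d at 1.33-fold (1.12 to 1.59).

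Of 4 chemokine genes compared, Ccl4, Ccl6 and Ccl9 were past 2-fold and none was lower, but 3 of the 4 are label genes, so their direction restates how they were chosen. Ccl9, which the label did not name, had 5157 CPM against 2139 CPM, a ratio of 2.41 (2.35 to 2.47). The list of 18 genes summed to 15003 CPM in Prss34-low cells, 5673 CPM in Prss34-high cells, 965 CPM in cells of the same rule in the cKIT+ library and 435 CPM in B-lineage cells. At similar depth none of the 4 was past 2-fold, and the median log2 ratio fell from 1.53 to 0.70. Another 9 chemokine genes of the list had 0 UMIs in Prss34-low cells.

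Of 9 chemoattractant receptor genes compared, 5 were at least 2-fold higher (Ccr3, C5ar1, Cxcr2, C3ar1 and Gpr183) and 1 was lower. Ccr3, C5ar1 and C3ar1 reached 50 CPM in Prss34-low cells only, and the lower gene in Prss34-high cells only. These 4 could thus be counted in 1 direction alone. C3ar1, the receptor of the complement fragment C3a, had 182 against 46.9 CPM, and C5ar1 101 against 19.0 CPM. Gpr183, which senses oxysterols, had 181 against 74.4 CPM. The lower gene was Cxcr4, the receptor by which CXCL12 holds blood cells in the marrow, with 27.7 CPM (22.6 to 33.6) against 148 CPM and 191 CPM in cycling basophils. Ccr1, a receptor for CCL3, had 460 against 368 CPM. At similar depth Ccr3, C5ar1 and Cxcr2 stayed past 2-fold, C3ar1 and Gpr183 did not, and Cxcr4 remained lower with 26.3 against 98.2 CPM. Cxcr2 is a label gene, so its direction restates how it was chosen, while the label named none of the other 8.

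**Figure D4:**
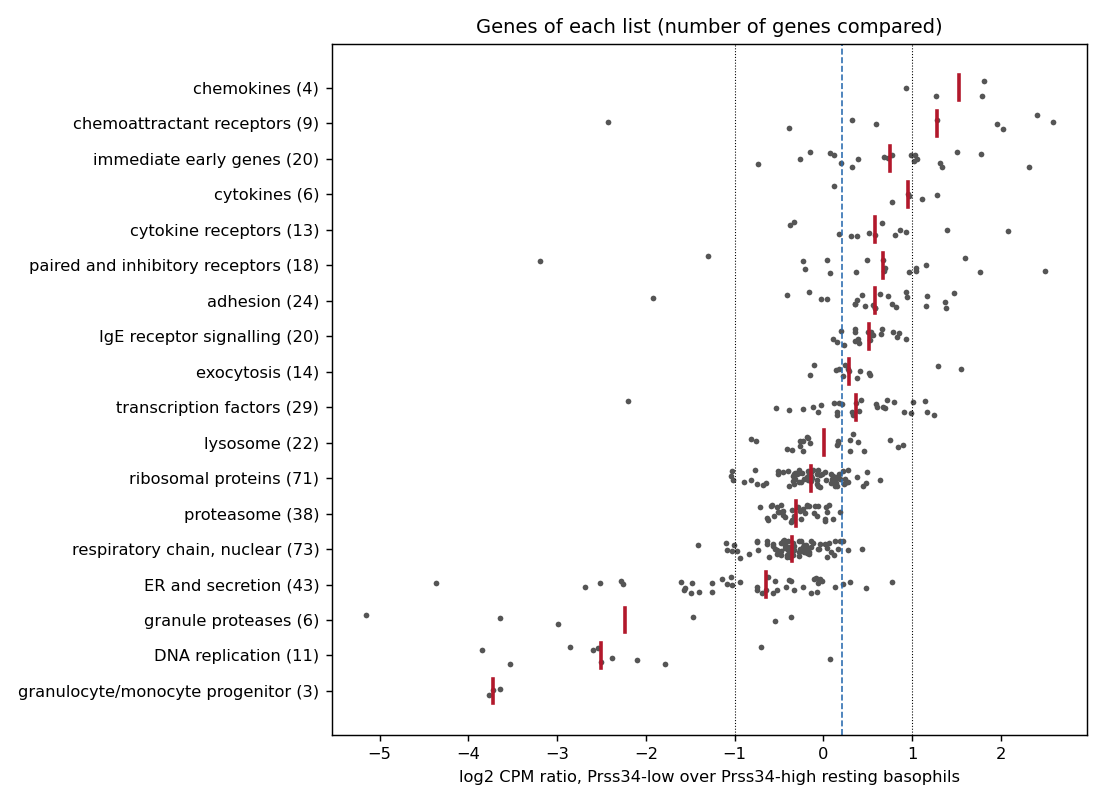
Log2 CPM ratio of Prss34-low over Prss34-high resting basophils (x axis) for the compared genes of 18 lists, 1 point a gene, with the list's median in red, the median of all genes (0.21) as a dashed line and 2-fold limits dotted. Chemokines and chemoattractant receptors lie to the right, and ER genes, granule proteases, DNA replication and progenitor genes to the left. These positions partly follow from how cells and genes were chosen. The rule used Prss34 and Mcpt8, and Ccl3, Ccl4 and Ccl6 are label genes. Most of the lower DNA replication and higher chemoattractant receptor genes reached 50 CPM on 1 side only.

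Counts for cytokine receptors and genes of IgE signalling stand beside 4.87% higher and 4.65% lower of all genes. Of 13 cytokine receptor genes compared, Il7r and Il18r1, a chain of the IL-18 receptor (195 against 74.0 CPM), were past 2-fold, the first of them a label gene. At similar depth Il7r alone was, and Il18r1 had 183 against 114 CPM. Csf2rb, the chain shared by the receptors of IL-3, IL-5 and GM-CSF, had 814 against 428 CPM, and Il18rap, the other IL-18 receptor chain, 590 against 325 CPM. None of 20 IgE receptor signalling genes and none of 5 Fc receptor genes was past 2-fold. The signalling median was 0.51 in log2 and the Fc receptor median 0.13, beside 0.21 for all genes. At similar depth they were 0.17 and 0.049, beside 0.11 for all genes. Fcer1a, the IgE-binding chain used in the rule, had 940 against 1402 CPM, while Fcer1g, the shared gamma chain, had 2762 against 2166 CPM.

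Of 18 paired and inhibitory receptor genes, 6 were past 2-fold higher (Cd7, Lilr4b, Lilrb4a, Cd200r3, Cd244 and Cd300lb) and 2 lower (Clec12a and Lair1). Cd7, Lilr4b and Cd200r3 are label genes, and the rule used Cd200r3, so their direction restates how they and the cells were chosen. Outside the label, Cd244 had 338 against 237 CPM at similar depth and Lilrb4a 216 against 121 CPM. Clec12a, an inhibitory lectin, had 45.6 against 417 CPM and stayed lower at similar depth (51.7 against 249 CPM). Tyrobp, the adaptor DAP12 through which activating receptors signal, had 6522 against 4101 CPM. At similar depth Cd7 alone remained higher past 2-fold. The list thus held genes past 2-fold in both directions.

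Early response genes were higher in part. Of 20 compared, 8 were past 2-fold higher and none lower, with a median log2 ratio of 0.75. Among the 8, Egr1, Zfp36, Ier5 and Ppp1r15a reached 50 CPM in Prss34-low cells only and so could be counted in 1 direction alone. Junb, a subunit of AP-1, had 548 against 193 CPM, Egr1 69.0 against 20.2 CPM, and Btg1, an antiproliferative gene, 633 against 251 CPM. Jun had 1582 against 957 CPM, Fosb 119 against 110 CPM and Fos 39.4 against 65.9 CPM. The list summed to 8995 CPM in Prss34-low cells, 5452 CPM in Prss34-high cells and 7829 CPM in B-lineage cells. At similar depth 1 of 17 (Zfp36) was past 2-fold. Early response genes are known for rapid induction by many stimuli.

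Of 6 cytokine genes compared, 2 were past 2-fold. Il4, the cytokine by which basophils are best known, had 92.6 against 42.9 CPM, and Osm, oncostatin M, 179 against 73.8 CPM. Il6 had 255 against 131 CPM, Hgf, hepatocyte growth factor, 353 against 183 CPM and Csf1, the macrophage growth factor, 373 against 218 CPM, each under 2-fold. Il13 had 6 UMIs. At similar depth Il4 had 74.4 against 68.5 CPM, a ratio of 1.09 (0.855 to 1.38), which was not distinguishable from 1 at this count, and Osm was also under 2-fold, with 146 against 121 CPM. Of 7 mediator synthesis genes none was past 2-fold, and Alox5ap, needed for leukotrienes, had 2746 against 1871 CPM.

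Among 24 adhesion genes, 5 were past 2-fold higher and 1 lower. Cd44, Itgam and Itgb3 reached 50 CPM in Prss34-low cells only and Cd81 in Prss34-high cells only. Each of these could be counted in 1 direction alone. Itga1 and Itgb1, the 2 chains of a collagen receptor, had 543 against 209 CPM and 446 against 171 CPM. Cd44, the hyaluronan receptor, had 103 against 37.1 CPM, and Itgam and Itgb3 were also higher, while the tetraspanin Cd81 was lower (25.3 against 95.2 CPM). At similar depth none of the 24 was past 2-fold, with Itga1 at 1.60 (1.45 to 1.77). Of 29 transcription factor genes, Cebpd (286 against 128 CPM), Satb1, Nfil3 and Runx2 were past 2-fold higher, and Myb, which maintains progenitors, was lower (19.3 against 88.6 CPM). Over all genes 4.87% were higher and 4.65% lower. Runx2 and Myb reached 50 CPM on 1 side only. None of the 27 compared at similar depth was past 2-fold.

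Proteasome, respiratory chain, ribosomal and lysosome genes had few or no genes past 2-fold but lower medians than the 0.21 of all genes. None of 38 proteasome genes was past 2-fold, with a median log2 ratio of -0.31. Of 73 nuclear respiratory chain genes 5 were lower, with a median of -0.36, and of 11 mitochondrial ones none, with a median of -0.46. Of 71 ribosomal protein genes 3 were lower, with a median of -0.14, and of 22 lysosome genes none, with a median of 0.00041. At similar depth no gene of these groups was past 2-fold. The medians there were -0.18 for proteasome and -0.050 for lysosome genes. Nuclear respiratory chain genes had -0.19 and mitochondrial ones -0.25, and the ribosomal median turned to 0.073. Each was still below the 0.11 of all genes.

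Exocytosis, glycolysis and survival genes had medians above that of all genes, at 0.28, 0.25 and 0.36. At similar depth their medians were 0.0037, 0.21 and 0.19 beside 0.11 for all genes, so the order turned for exocytosis genes. Of 14 exocytosis genes Sytl3, a synaptotagmin-like protein, and Lyst, which sets the size of secretory lysosomes, were higher (383 against 131 CPM and 214 against 87.4 CPM), and of 14 glycolysis genes Hk3 was (99.9 against 35.3 CPM). Of 13 survival genes Pim1, a kinase induced by cytokines, was higher (412 against 199 CPM) and Bcl2 lower (32.3 against 98.2 CPM). Over all genes 4.87% were higher and 4.65% lower, so nothing is read about the glycolysis and survival lists from these single genes. At similar depth none of these 5 genes was past 2-fold, with Sytl3 at 363 against 230 CPM, Lyst at 196 against 130 CPM and Hk3 at 99.8 against 59.2 CPM. Of 4 interferon genes compared, Ifitm1, an antiviral membrane protein, had 5796 against 2061 CPM, and its ratio of 2.81 (2.75 to 2.88) became 2.19 (2.12 to 2.27) at similar depth. None of 5 antigen presentation genes was past 2-fold.

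Across both resting populations the levels changed in steps between groups of cells with a rising share of Prss34. The 892 Prss34-low cells with Prss34 under 0.1% of UMIs had 6359 CPM of Ccl6, the 123 cells from 0.1% to 0.3% had 5333 CPM and the 157 cells from 0.3% to 1% had 3899 CPM. The 210 Prss34-high cells from 1% to 3% had 2742 CPM and the 579 cells from 3% to 10% had 1382 CPM. Cd7 went from 1237 through 1004, 753 and 462 to 135 CPM in the same 5 groups, and Il7r from 279.5 to 45.0 CPM. Ccl3 went from 3197 to 1424 CPM. Ccl4, Ccl9, Lilr4b and Cxcr2 were likewise lower at each of these steps. Cd200r3 was not, with 713 CPM in the first group and 723 CPM in the second, and Cxcr4 was higher at each step, from 16.0 to 160 CPM.

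The protease and progenitor genes ran the other way. Mcpt8 had 2642, 4689, 8960, 17120 and 34966 CPM in these groups, so it was graded also within the Prss34-low cells. Ctsg had 156, 249, 730, 1626 and 3709 CPM, Mpo 49.8, 76.7, 334, 882 and 1455 CPM and Ms4a3 24.0 CPM in the first group and 838 CPM in the fifth. Ms4a2 stayed between 1990 and 2335 CPM. The median depth rose along the same groups, from 2934.5 through 3547, 3803 and 4307.5 to 6305 UMIs, so depth and Prss34 cannot be told apart along these steps. Only 8 cells had 10% or more, and nothing is read from them.

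**Figure D5:**
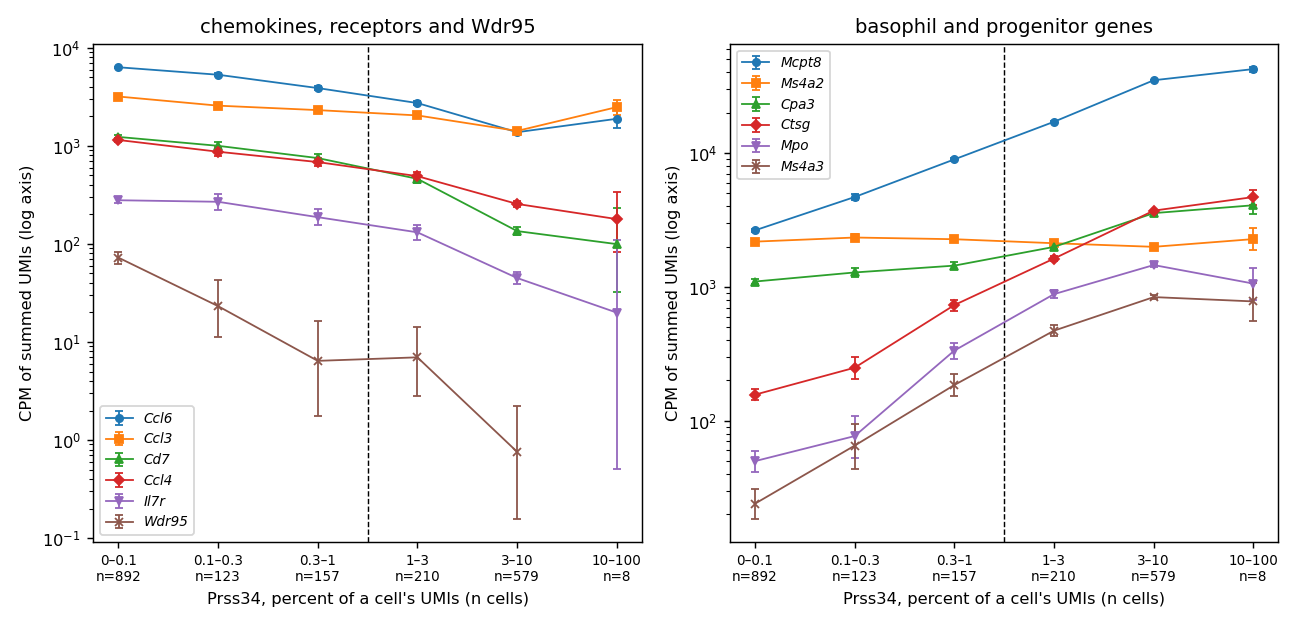
CPM on a log axis of 12 genes in resting basophils of the cKIT- library grouped by the share of Prss34 among a cell's UMIs (x axis, number of cells below), with 95% counting intervals and the 1% limit dashed. The 6 genes of the left panel decline over the first 5 groups, except Wdr95 between the third and the fourth (6.42 and 6.97 CPM), and protease and progenitor genes climb, while Ms4a2 is level, and Wdr95 has no point in the last group because it had 0 UMIs in those 8 cells.

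Cells just inside and just outside the Prss34 limit had similar levels of Ccl6 and Cd7. The 32 Prss34-low cells with 0.8% to 1.0% Prss34 had 5054 CPM of Ccl6 and 744 CPM of Cd7, and the 28 cells with 1.0% to 1.2%, which the rule left out, had 5370 and 717 CPM. On both sides Ccl6 was above the level of the wider group, 3899 CPM from 0.3% to 1% and 2742 CPM from 1% to 3%. Ccl6 thus did not decline evenly with Prss34 inside these groups, though few cells lay next to the limit. Most Prss34-low cells lay far from this limit, with a median Prss34 of 0.0333% of UMIs and none in 454 cells (38.7%). The median of Prss34-high cells was 4.51%.

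More cells lay near the limit on basophil genes. In Prss34-low cells the 4 genes together had a median share of 0.648%, and 492 of 1172 cells lay under 0.6%. The 76 cells with 0.2% to 0.3% that met every other condition, and so were left out, had 7383 CPM of Ccl6, 4099 CPM of Ccl3 and 1495 CPM of Cd7, with Mcpt8 at 646 CPM. The 130 cells just inside, from 0.3% to 0.4%, had 7163 CPM of Ccl6, 3348 CPM of Ccl3 and 1343 CPM of Cd7, with Mcpt8 at 1002 CPM. Ccl3 was thus higher just outside this limit than just inside it. At 0.9% or more, 272 cells had 4733 CPM of Ccl6 and 890 CPM of Cd7. Cd200r3 ran the other way, with 346 CPM just outside, 504 CPM just inside and 691 CPM at 0.9% or more. Mcpt8 and Cd200r3 are part of the sum that set these groups, so their order was fixed by it.

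Variation among Prss34-low cells was measured on cells thinned to 1000 UMIs, by the variance of a gene's UMIs over its mean (the Fano factor), for 2894 genes with a mean of at least 0.05. The median was 1.00, the value of pure counting noise, and 14 genes reached 2 or more. S100a9 (62.3) and S100a8 (42.5) owed theirs to the cell described above. After them came Prss34 (4.63), Ccl6 (4.61), Mcpt8 (3.88), Ifitm1 (3.87), Tmsb4x (2.93), Actb (2.85), Jun (2.28) and Malat1 (2.25). The rule capped Prss34 and so limited its spread, and a Fano factor also grows with a gene's mean, so these values are not ranked against each other.

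Ccl6 and its neighbour Ccl9 did not vary together. The values here are CPM of cells thinned to 1000 UMIs, in which each cell has the same weight, and so differ from the summed levels above. Split at the median Ccl6 of thinned cells, the 568 cells above it had 10555 CPM of Ccl6 and 4151 CPM of Ccl9, and the 604 cells at or below it had 2171 and 6101 CPM. Ccl9 was thus lower where Ccl6 was higher, although both were higher in Prss34-low than in Prss34-high cells as a whole. Ccl3 had 3268 CPM above and 2811 CPM below this split, and Mcpt8 2717 and 4040 CPM. Split by Ccl3 instead, Ccl9 had 5169 CPM above and 5143 CPM below. These are descriptions over cells of 1 library, which are not replicates.

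Against the other cells of the library, 374 of 3373 genes were at least 2-fold higher in Prss34-low cells (11.1%) and 422 at least 2-fold lower (12.5%). In cells of 3000 to 6000 UMIs, 616 Prss34-low and 694 others, the counts were 28 (0.904%) and 125 (4.03%) of 3098 genes. All 8 label genes were among the higher ones in all cells, with ratios up to 10.8 for Cd7 (10.2 to 11.4). At similar depth 5 of the 8 were past 2-fold, with Cd7 at 3.14, Il7r at 2.90, Cxcr2 at 2.36, Ccl4 at 2.11 and Ccl6 at 2.04, and Lilr4b (1.95), Cd200r3 (1.66) and Ccl3 (1.40) were not. With the limit on basophil genes at 1%, which moves the cells left out to the other side, Cd7 had a ratio of 3.58, Il7r 2.95, Ccl4 2.35 and Ccl3 1.78. With equal weight for each cell Cd7 had 5.72. The genes of largest ratio were Wdr95, Cd7, Dnase2b, Ccr3, C3ar1, Il7r, Igsf6, Cxcr2, C5ar1, Gm35147, Slfn2, Dmxl2, Ccl4, L1cam and 4833407H14Rik, from 12.6 to 5.28-fold. The lowest were Camp, Ccnb2, Top2a, Spc24, Cenpf, Ngp, Mki67, Rrm2, Retnlg and Cd74, which belong to neutrophils, antigen-presenting cells and dividing cells. Of these, Top2a and Mki67 were used by the rule. Since 1197 of the other cells were cycling basophils, this contrast holds much of the next.

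Against the cycling basophils, 508 of 3454 genes were at least 2-fold higher (14.7%) and 562 at least 2-fold lower (16.3%). Wdr95 (80.8-fold, 41.7 to 179), Cd7 (25.4-fold, 23.3 to 27.8), C5ar1 (20.2-fold, 15.5 to 26.8), Dnase2b (20.1-fold, 14.2 to 29.0) and Zfp36 (17.2-fold, 14.0 to 21.4) had the largest ratios. Each of these was also higher than in Prss34-high cells. Ccnb2, Top2a, Spc24, Cenpf and Mki67, all genes of cell division, were lowest. Top2a and Mki67 defined both populations, so this order follows from how the cells were chosen, and Ccnb2, with 1 UMI, had 0.272 against 240 CPM.

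Against the cells chosen by the same rule in the cKIT+ library, 769 of 3364 genes were at least 2-fold higher (22.9%) and 465 at least 2-fold lower (13.8%). All 8 label genes were higher, among them Il7r at 27.3-fold (20.2 to 37.8). The largest ratios were those of Gm35147, Adora2b, an adenosine receptor (46.1-fold, 29.95 to 74.9), Fam110c, Il18r1 (28.7-fold, 20.1 to 42.6) and Il7r. Of 18 paired and inhibitory receptor genes 15 were past 2-fold higher and 2 lower, and of 20 IgE receptor signalling genes 10 were higher and none lower.

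Progenitor genes were lower in Prss34-low cells than in cells of the same rule in the cKIT+ library. Apoe had 128 against 1521 CPM, Myb 19.3 against 261 CPM, Mpo 101 against 3038 CPM and Ctsg 264 against 3523 CPM. Camp, Cd24a, Cma1, Tnfrsf13b and Sdsl had the largest differences toward the cKIT+ cells, and Cma1, a mast cell chymase, had 3 UMIs against 107 CPM. Ribosomal protein genes took 17.9% of UMIs in Prss34-low cells and 31.2% in cells of the same rule in the cKIT+ library. The sort and the library cannot be told apart in this contrast, and depth differed as given above.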

How the data were processed

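The data were 2 single-cell libraries of sorted mouse bone marrow. Per the labels, reads were processed with Cell Ranger 3.0.2 on mm10, and what the authors deposited are unnormalized UMI counts for 31053 genes in each cell. The annotation release is not given in the sources used here. The labels name kit version 2 and the paper version 3.

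The members, the gene lists and the alternatives were chosen with earlier results of these data known. Cells were selected from the counts by the stated rule, and no further filter was applied. UMIs were summed per population and scaled to CPM. Genes with at least 50 CPM on either side were compared, and 2-fold was the limit for a count. Intervals were exact Poisson for levels, exact binomial (Clopper-Pearson) for shares and from the conditional binomial for ratios, at 95%. With 1 library per sort no test was possible, and cells are not replicates. The calculation of ratios and counts was tested on simulated summed counts with known changes. These held no variation between cells and no selection by a rule, so they say nothing about either. For shares and Fano factors each cell was thinned to 1000 UMIs (seed 20220), which left out 0 Prss34-low cells.

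Genes named were the label genes, basophil markers and sort genes, the 15 highest and 10 lowest ratios against the other cells and against Prss34-high cells, 5 and 5 for the other contrasts, for each list its most abundant genes and those past 4-fold, and the 10 highest Fano factors. Other genes named within a list, and the genes shown for cells split by Ccl6, were chosen after their values were seen. Of the gene identifiers, 30934 were found in GENCODE mouse release 21 (GRCm38), which gave gene coordinates, and RefSeq (GRCm38.p6) gave upstream sequences. Symbols with several identifiers (71) were left out of lists, which removed 1 glycolysis gene.

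Doublets were kept. Scrublet, run in scanpy 1.11.5, called 3 of 3745 cells. Its calls were not used. As an alternative the 112 highest scores, the number given by an assumed rate of 0.8% per 1000 cells, were left out, 4 of them Prss34-low cells. Python 3.11.15, numpy 2.4.6, scipy 1.17.1 and pandas 2.3.3 were used.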

Additional observations from a re-analysis of the deposited data

How the results depend on the processing

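No paired analysis was possible because each sort gave a single library. The number of Prss34-low cells stayed within 1.5 times of 1172 with other Prss34 limits, a minimum of 2000 UMIs and other cell and doublet filters. Higher limits on basophil genes left 680 cells (18.2%) at 0.6% and 197 cells (5.26%) at 1%, and the window of 3000 to 6000 UMIs left 616 by its construction. The share was 28.8% and 34.4% with the Prss34 limit at 0.5% and 2%, 29.1% from 2000 UMIs and 34.2% with cells of other types filtered more strictly.

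Against Prss34-high cells, the genes at least 2-fold higher and lower numbered 152 and 145. UMIs per cell gave 6 and 1407, a scale on which shallower cells are lower by construction, and turned Ccl3 (ratio 0.953). A minimum of 20 CPM gave 231 and 294, and 200 CPM gave 48 and 42, since more or fewer genes were compared. Equal weight for each cell gave 91 higher, and cells of 3000 to 6000 UMIs, chosen after the data were seen, gave 20 and 30. Against the other cells, 374 and 422 became 13 and 2322 with UMIs per cell, 28 and 125 at similar depth, and 133 and 117 at 200 CPM. There 20 CPM gave 830 lower, equal weight 205 higher and a basophil limit of 1% gave 139 higher. Where no reason is named the cause was not tested.

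Apart from UMIs per cell, the ratios of all 8 label genes stayed above 1 under 14 alternatives against the other cells and 13 against Prss34-high cells, the lowest being Ccl3 at similar depth. The label genes were put forward from earlier results of these data and the rule used Cd200r3. Their direction thus restates how they were chosen and does not test it. Values of single genes under an alternative moved beyond their counting interval or 1.5 times in 133 cases and did not in 124. In 1 further case, Ccl3 by UMIs per cell, the direction turned. The shallow cells limit what can be said of genes under 50 CPM.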
